A study of Homo sapiens with 32 samples.

Results

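The very long 3′ regions were those counting regions of RefSeq mRNAs that spanned at least 4000 bases and held a mean of at least 50 reads over the 32 libraries. One region was kept for each gene, the one with the most reads, and length and mean reads were the only values that chose the members. Of 14314 genes with at least 1 read, 755 met the rule. The gene ARPIN-AP3S2 was left out because its reads were the same as those of another gene, so 754 genes were analysed. They were set beside 6058 genes whose regions spanned at least 300 but under 4000 bases with the same minimum of reads. Length and T content are properties of the regions, whereas the labelled share and the shifts with stress and auxin were not used by the rule.

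The 3′ untranslated region (3′UTR) is the part of an mRNA behind its stop codon. It carries binding sites for microRNAs and for RNA-binding proteins that set how long the mRNA lives, where in the cell it goes and how well it is translated. AU-rich elements, built from the pentamer AUUUA, are the best known of its decay signals, and long 3′UTRs are common in mRNAs of transcriptional and signalling regulators. IGF2BP3, the protein depleted in these cells, is an RNA-binding protein that is known for binding mRNAs in and near their 3′UTRs.

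The libraries came from SLAM-seq, in which cells take up 4-thiouridine (s4U) and alkylation makes the incorporated analogue read as a T-to-C conversion. HCT116, an established human colorectal carcinoma cell line, carried a doxycycline-inducible OsTIR1, the plant receptor that directs degron-tagged proteins to the proteasome when auxin is present. The parental line had no tag, and the tagged line carried the mini degron mAID on both endogenous copies of IGF2BP3. Libraries were made from the 3′ ends of polyadenylated RNA with QuantSeq and read as single reads. Doxycycline (200 ng/mL, 24 h) and s4U (250 µM, 2 h) were given to all 8 groups. Each line was either unstressed or stressed with tunicamycin, an inhibitor of N-glycosylation that causes endoplasmic reticulum (ER) stress, at 5 µg/mL for 5 h. Each of these was given vehicle (DMSO) or auxin (IAA) at 500 µM for 9 h. There were 4 libraries in each group, each from 1 well of a plate, so the tests measure the spread between wells. The labels do not say whether the tagged line was 1 clone, and those of replicates 1 and 2 of tagged, unstressed, vehicle-treated cells repeat the name of the tag. Degradation by auxin acts on the protein, so the reads of IGF2BP3, whose own region spans 2153 bases, do not check its depletion: its group means lay between 145 and 184 CPM, reads scaled to the same total in every library. The epithelial markers EPCAM, KRT8, KRT18, KRT19 and CDH1 were read in every library. EPCAM was at 125 to 437 CPM, KRT8 at 36.9 to 408 CPM and CDH1 at 2.55 to 63.5 CPM. The colon markers LGALS4 and CEACAM5 had 7 and 3 reads in all libraries together. Of the markers of other cell types, COL1A1 was at 18.5 to 59.8 CPM, COL1A2, PTPRC and CD3E were at 0 reads, and PDGFRB, PECAM1, VWF and HBB had 6 to 37 reads in all.

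One library stood apart. Replicate 1 of parental, stressed, auxin-treated cells held 984226 gene reads, against 2542041 to 6962984 in the other 31. The long regions took 8.29% of its gene reads and 7.05% to 7.76% in the others, and its reads in long regions covered a median of 16.0 T per read against 22.2 to 27.1. The model shares 1 estimate of the spread over all libraries, so results below are given with 32 libraries and with the 31 that remain without it.

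The median long region spanned 5081 bases, with quartiles at 4433 and 6327, and 224 regions reached 6000. The longest were AAK1 (17874 bases, a kinase of clathrin-coated vesicles), LPP (16192, a protein of focal adhesions), QKI (14851, an RNA-binding splicing regulator) and ONECUT2 (14575, a transcription factor), followed by ZNF704 (12915). The median mean read number was 187 in long and 186 in the shorter regions, so the 2 sets were read about equally deeply. T made up a median of 31.7% of the bases of long regions and 30.0% of the others. At the threshold, the labelled share of parental, unstressed, vehicle-treated cells was 17.6% ± 0.431 (SD, n = 4) in PIP4K2B (4000 bases), 16.0% ± 2.68 in GPAT4 (4000), 9.96% ± 5.66 in VASH1 (4002), 17.3% ± 3.98 in POFUT1 (4003) and 20.5% ± 4.34 in KIF3A (4003). Just below it, the share was 46.0% ± 9.48 in KCTD7 (3997 bases), 24.0% ± 4.78 in BTF3L4 (3996), 43.4% ± 9.33 in ATXN7 (3995), 31.7% ± 1.91 in TNRC6C (3990) and 8.32% ± 0.624 in GNG12 (3985).

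The region is what the reads were counted over, and the counts do not say where in it they lie. For 434 of the 731 genes whose RefSeq transcript was matched in GENCODE 29, the region had the length of that transcript's annotated 3′UTR to within 10 bases. A shorter region of the same gene can hold the same reads. Among the 102 genes that also had an mRNA region under 4000 bases, the shorter one held a median of 7.5% as many reads. In 20 genes it held at least 50%, and in 9 of them at least 90%. In TPT1, the gene of the translationally controlled tumour protein, it held 99.98% as many, so nearly all reads credited to its region of 4005 bases also lay in the shorter one. The shorter region held 99.82% as many in URM1, 98.67% in BCL2L13 and 91.82% in JRK.

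The short windows below are stretches of 30 bases, for each gene one with the most copies of the AU-rich pentamer in its long 3′UTR. They are shown for genes at both ends of the range of labelled share described after them. Genes of that ranking without a matched 3′UTR in a single exon were passed over. ATTTA is in capitals, each window is written 5′ to 3′ on the gene's strand and the build is GRCh38. The 4 genes with a high labelled share are the transcriptional repressor HIC2 (chr22:21450906-21450935, plus strand), the zinc-finger gene ZBTB43 (chr9:126834501-126834530, plus), NUFIP2 (chr17:29261551-29261580, minus), which encodes an RNA-binding protein, and the Polycomb gene PHC3 (chr3:170096871-170096900, minus). Those with a low share are the ribosomal protein gene RPL27A (chr11:8688487-8688516, plus), TPT1 (chr13:45337247-45337276, minus), the receptor chaperone LRPAP1 (chr4:3512633-3512662, minus) and the septin SEPTIN11 (chr4:77036981-77037010, plus). All 8 lie in annotated 3′UTRs.
HIC2: cttgctATTTAttgctgtaATTTAttgacc
ZBTB43: tatgaaacagataATTTAcggtacaaggct
NUFIP2: tgtgattaATTTAgcacATTTAaataacgt
PHC3: ttaaaagtaATTTAatgATTTAcatttctc
RPL27A: ttcttgaacccgcATTTActaaaatatttt
TPT1: tcttcATTTAttttgactgtgATTTAtttg
LRPAP1: ctaaaacaacacgATTTAcataaaaaatct
SEPTIN11: aaatatATTTAaaaggccacATTTAtattt
Over the whole region, the pentamer occurred 13 times in ZBTB43 (3.03 per kilobase), 25 times in NUFIP2 (2.87) and 27 times in PHC3 (2.80), but 5 times in HIC2 (1.06). It occurred 2 times in RPL27A (0.492 per kilobase), 9 times in LRPAP1 (0.960) and 6 times in SEPTIN11 (1.46), but 10 times in TPT1 (2.50). The densities of genes with a high and with a low labelled share thus overlapped through HIC2 and TPT1. The other genes with a high share lay above the other genes with a low one.

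The labelled share is the percentage of a region's reads that carry T-to-C conversions, and it is higher where more of an mRNA was made during the 2 h of s4U. In parental, unstressed, vehicle-treated cells the median long region had a labelled share of 21.8% ± 1.13 (SD, n = 4), and the median shorter region one of 16.9%. The gap between the 2 medians was 4.88 percentage points, and it lay between 4.31 and 5.21 in the 4 libraries. It was 4.37 points with auxin, 3.65 with stress and 3.09 with both, the last being 3.36 without the smallest library. Tagged cells had gaps of 4.81, 4.09, 3.52 and 3.18 points in the same order. As a ratio, the median long region stood between 1.24 and 1.30 times above the median shorter one in the 8 groups, so the smaller gap under stress went with a lower labelled share in both sets. The long median was 20.1% ± 0.378 with auxin, 17.6% ± 1.09 with stress and 15.8% ± 1.95 with both in parental cells, and 21.0% ± 1.15, 18.9% ± 1.21, 17.9% ± 0.832 and 15.9% ± 0.838 in the 4 tagged groups. These medians over members have no test, since the members were chosen with results of these data known.

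**Figure D1:**
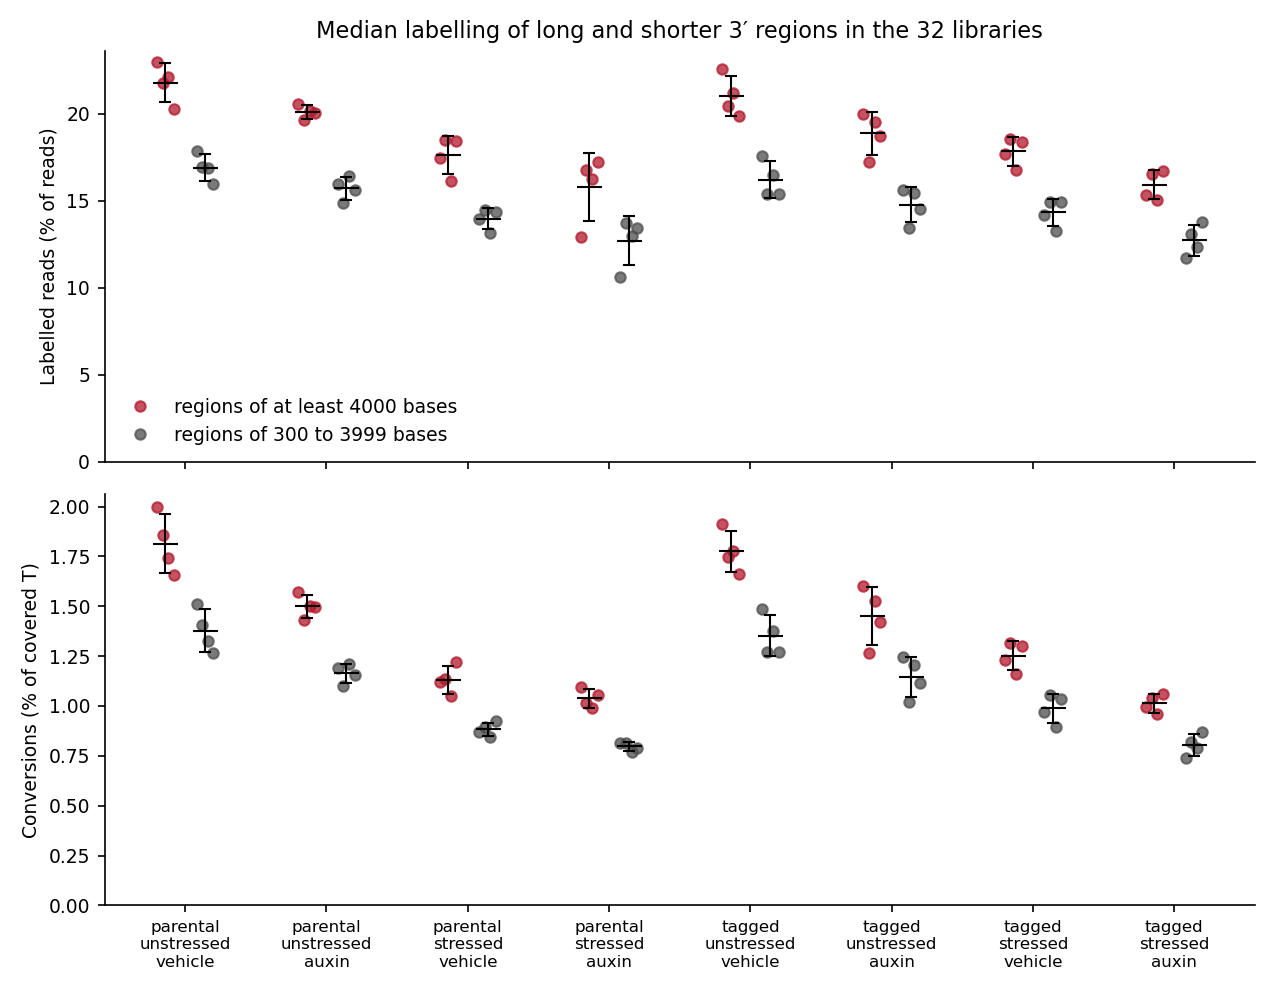
Median labelled share (upper panel, percent of reads) and median conversions (lower panel, percent of covered T) of the 754 long regions in red and the 6058 shorter regions in grey. Points are libraries and bars the mean ± SD of 4; in each of the 32 libraries the red point lies above the grey one, and only in parental, stressed, auxin-treated cells is the red point of 1 library (upper panel) below the grey points of the other 3.

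A region with more T offers more places for a conversion, so the conversions were also divided by the T that the reads covered. Long regions stayed higher: 1.81% of covered T was converted in the median long region and 1.38% in the median shorter one in parental, unstressed, vehicle-treated cells. Under stress these values were 1.13% and 0.882%. The median number of T covered by a read was 23.4 in long regions of the unstressed cells, 0.29 below that of the shorter ones. When long and shorter regions were set side by side within 5 bands of T content, the gap of 4.88 points became 4.05, and under stress 3.65 became 2.92.

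The labelled share rose with length well below 4000 bases and more slowly above it. In parental, unstressed, vehicle-treated cells the median share was 9.40% ± 0.524 in 1310 regions under 300 bases and 14.1% ± 0.581 in 2437 regions from 300 to below 1000 bases. It was 17.6% ± 0.698 in the class that starts at 1000 bases, 19.4% ± 0.782 in that at 2000 and 21.1% ± 1.01 in that at 3000. Among the members it was 21.6% ± 1.45 in 351 regions from 4000 to below 5000 bases, 20.4% ± 1.07 in 179 from there to below 6000, 22.8% ± 1.16 in 151 from there to below 8000 and 24.1% ± 1.47 in the 73 of 8000 or more. The median T content rose over the same classes, from 28.1% in the shortest to 32.5% in the longest, and its part in the trend was examined only through the bands given above. The classes just below and just above 4000 bases lay within 1 SD of each other, so the threshold marks no step.

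**Figure D2:**
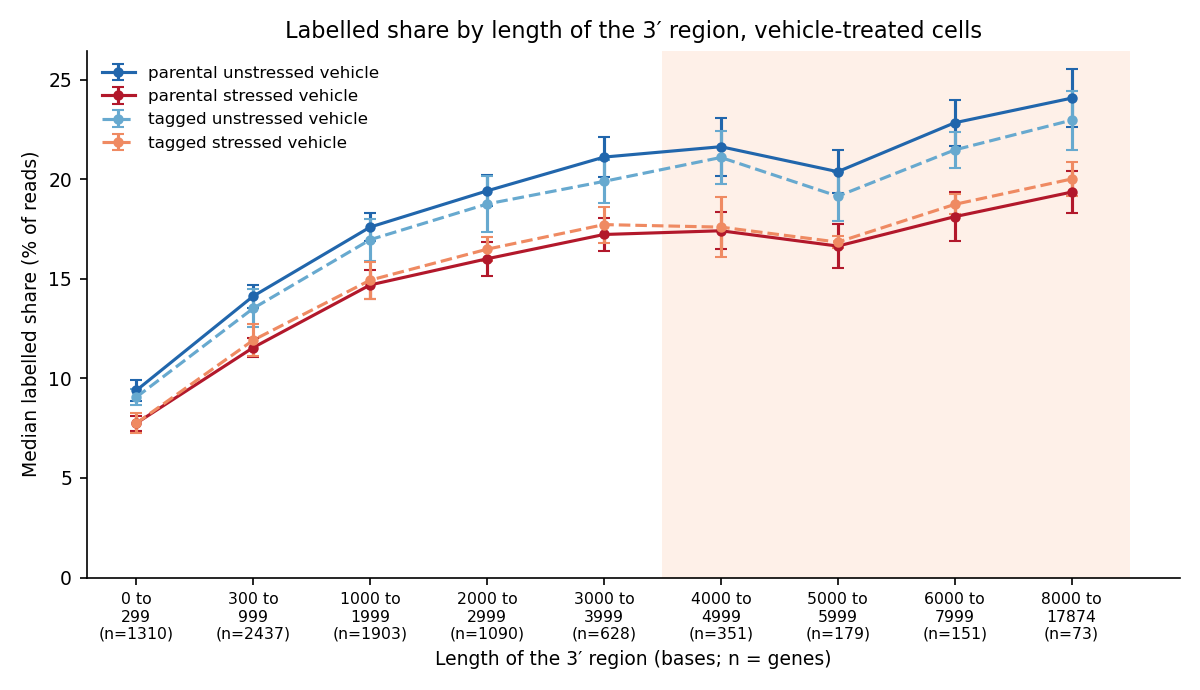
Median labelled share (percent of reads) by length of the 3′ region (bases) in the 4 groups of vehicle-treated cells; points are means and bars the SD of 4 libraries, and the shading marks the long regions. In parental, unstressed cells the share goes from 9.40% under 300 bases to 21.1% in the last class below 4000 and 24.1% at 8000 or more.

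The long regions were higher through most of the distribution, and the sets came together at its upper end. The lower quartile was 16.1% in long and 10.9% in shorter regions, and the upper quartile 29.5% and 26.5%. Of the long regions 5.70% (43) had a labelled share under 10% in parental, unstressed, vehicle-treated cells, against 21.3% of the shorter ones. At the high end, 8.75% (66) of the long and 8.73% of the shorter regions had a share of at least 40%. Within the long regions the share ran from 2.66% to 74.1%. Under stress the number under 10% was 92 and the number of at least 40% was 36.

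Among long regions with a mean of at least 200 reads, HIC2 had the highest labelled share: 68.3%, 66.2%, 66.3% and 65.4% in the 4 parental, unstressed, vehicle-treated libraries. It was followed by ZBTB43 at 55.4% ± 3.24, CREBZF, a bZIP transcription factor, at 55.3% ± 4.03, PHLDA1, a stress-induced gene with a pleckstrin-homology domain, at 55.2% ± 1.35, NUFIP2 at 52.2% ± 4.56, PHC3 at 50.4% ± 6.07, FEM1B, a substrate receptor of a ubiquitin ligase, at 47.3% ± 4.51, and ZFAND5 at 45.4% ± 3.45. The lowest was RPL27A with 2.51%, 2.95%, 2.72% and 2.47%, so no library of it came near any library of HIC2. URM1 (4.55% ± 2.33), TPT1 (5.37% ± 0.70), LRPAP1 (5.65% ± 0.99), SEPTIN11 (5.70% ± 0.80), NOP9 (6.31% ± 2.33), UQCRB of the respiratory chain (6.52%) and the interferon receptor IFNAR1 (7.5% ± 0.49) were the next lowest. Nearly all reads of URM1 and TPT1 also lay in a shorter region of the same gene, so their shares cannot be credited to the long region alone. With fewer than 200 reads, YOD1 (74.1%) and CCNT2 (72.1%) stood above HIC2.

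Gene lists were drawn up from gene symbols. In parental, unstressed, vehicle-treated cells the 35 zinc-finger transcription factors had a median labelled share of 34.9% and the 10 chromatin regulators one of 35.2%. The 28 other transcription factors had 27.9%, the 6 genes of cyclins, p53 and the cell cycle 26.8%, the 11 genes of small-RNA silencing and mRNA decay 25%, the 6 reported let-7 and IGF2BP3 targets 24.5% and the 40 ubiquitin ligases and deubiquitinases 23.2%. Lower medians were found for the 16 RNA-binding regulators of translation and splicing (21.8%), the 27 small GTPases and their regulators (21.7%), the 37 protein kinases and phosphatases (20.6%), the 39 solute carriers and ion channels (19.0%), the 11 genes of the unfolded protein and ATF4 response (18.3%) and the 18 of adhesion, matrix and cytoskeleton (15.5%). Genes of the same lists with shorter regions had the lower median in 8 of the 13 lists. Among these were the list of cyclins, p53 and cell cycle (19.6%) and those of small GTPases (17.7%), solute carriers (15.5%), chromatin regulators (32.4%) and adhesion (14.3%). Genes with shorter regions had the higher median in 5 lists. These were zinc fingers (37.7%), other transcription factors (31.3%), RNA-binding regulators (25.5%), silencing and decay (25.2%) and the unfolded protein and ATF4 response (22.1%). Some lists hold genes outside the function they are named for. TMEM106B and other TMEM genes count as solute carriers and ion channels, ANKRD52 as adhesion, and SIKE1 as a kinase or phosphatase. The lists covered 270 of the 754 genes, and the other 484 were on none.

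In the 434 genes whose 3′UTR could be read from the genome, at least 1 ATTTA was found in 430 (99.1%), against 73.8% of 3682 shorter 3′UTRs. The median density was 2.19 per kilobase in long and 1.62 in shorter 3′UTRs, searched on the gene's strand. A longer 3′UTR is more likely to hold any short motif, so presence is not comparable between the sets: pooled over all bases, the pentamer stood at 2.33 per kilobase in long and 2.12 in shorter 3′UTRs. When the long 3′UTRs were split into 5 bands of rising pentamer density, the median labelled share was 19.5%, 21.4%, 22.9%, 24.4% and 24.6%. T content rose over the same bands from 25.8% to 35.3%, and its part in this order was not tested. The nonamer TTATTTATT, which contains the pentamer, occurred in 23.7% of long and 6.6% of shorter 3′UTRs, at pooled densities of 0.0599 and 0.0542 per kilobase, and the median share was 21.8% with it and 22.5% without. The Pumilio motif TGTANATA occurred in 63.4% (share 22.2% with, 22.6% without) and the let-7 seed match CTACCTC in 25.6% (22.4% with, 22.5% without). Long 3′UTRs with the tract CACACACA, of the kind that IGF2BP proteins bind, numbered 121 (27.9%). Their median share was 20.8%, against 23.2% in long 3′UTRs without the tract. In shorter 3′UTRs the medians were 17.6% with and 17.3% without it, and no difference between these values was tested. GGACT and AATAAA were found in 98.2% and 98.6%, so nearly no long 3′UTR was without them.

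Tunicamycin raised and lowered members in both lines, and EDEM1, SEL1L and SLC7A11 rose most. In parental, vehicle-treated cells the total reads of 56 members rose and those of 47 fell (edgeR quasi-likelihood test, Benjamini-Hochberg adjusted p under 0.05). That is 13.7% of the 754, against 12.9% of all genes tested. With 31 libraries 116 rose and 116 fell, against 30.0% of all genes tested, and the 103 called with 32 libraries were among them. Leaving out replicate 1 or 2 of the unstressed or replicate 2 of the stressed parental, vehicle-treated cells lowered the members called to 8.62%, 7.16% and 7.43%. Correcting each library for T content turned the split to 45 that rose and 61 that fell. In tagged, vehicle-treated cells 26 rose and 10 fell, against 4.03% of all genes tested, or 43 and 27 against 7.70% with 31 libraries. The share of members called was therefore near that of all genes in both lines. An interaction test compared the effect of stress between tagged and parental cells, and no member was called. Of all genes 0 (0.0%) were called by edgeR's quasi-likelihood test, and DESeq2 called 0 members. An unadjusted p under 0.05 by the edgeR test was reached by 47 of the 754 members and 833 of all 11167 genes. The median member moved by -0.04 on the log2 scale in parental cells, and the median shorter region by 0.01. Reads are shares of a whole well, so fewer cells with an mRNA and less of it per cell cannot be told apart.

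SEL1L, the adaptor of the HRD1 ubiquitin ligase in ER-associated degradation, lies at chr14:81471547-81533853 (gene span, GRCh38) with a 3′ region of 5425 bases. Its reads were 48.1, 44.4, 44.5 and 50.7 CPM in the 4 parental, unstressed, vehicle-treated libraries and 217, 246, 193 and 243 CPM in the stressed ones. All 4 stressed libraries lay above all unstressed ones, and the log2 change was 2.26 (SE 0.129, edgeR adjusted p = 2.7e-14). In tagged cells it was at 44.5, 53.7, 52.5 and 45.0 CPM without stress and at 220, 236, 208 and 232 CPM with it, a log2 change of 2.19 (SE 0.13, edgeR adjusted p = 6.99e-14). EDEM1, which helps to clear misfolded glycoproteins from the ER, went from 5.73, 3.87, 6.40 and 3.65 CPM to 18.8, 34.7, 20.7 and 23.5 CPM in parental cells (log2 change 2.31, SE 0.262, edgeR adjusted p = 1.14e-07), also with no overlap. SLC7A11, the cystine carrier, went from 95.9, 90.6, 82.0 and 93.8 CPM to 409, 446, 387 and 424 CPM (log2 change 2.20, SE 0.223, edgeR adjusted p = 1.85e-08). In auxin-treated parental cells its change was 2.44 with the smallest library, in which it stood at 1289 CPM, and 1.86 without it.

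Of the 11 long-region genes of the unfolded protein and ATF4 response, 10 rose in parental, vehicle-treated cells and none fell, against 7.65% of all genes that rose and 5.27% that fell. Their median log2 change was 0.95, against -0.01 for all genes tested. In tagged cells 8 of 11 rose (2.93% of all genes rose), with a median of 0.86. With 31 libraries 11 and 8 of them rose, against 16.0% and 5.07% of all genes. The list was drawn up with results of these data known, so its count is a description. Besides SEL1L, EDEM1 and SLC7A11, the risers in parental cells were the hexosamine enzyme GFPT1 (1.11), the ER-bound transcription factors CREB3L2 (1.12) and ATF6 (0.39), the amino acid carrier SLC7A1 (0.95), the translocon-associated SSR1 (0.51), CREBRF (0.69) and JMY (0.71). SEC62, a translocon subunit, had a log2 change of 0.37 (edgeR adjusted p = 0.0627). In tagged cells CREBRF (0.54, edgeR adjusted p = 0.177) and JMY (0.36, edgeR adjusted p = 0.238) did not pass the threshold either.

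Outside that list, genes that rose in both lines included PGM3 of the hexosamine pathway (log2 change 1.04 in parental and 0.98 in tagged cells), the folding sensor UGGT1 (0.58 and 0.66), the ER prolyl isomerase FKBP14 (1.43 and 1.36), the cargo receptor TMED5 (0.84 and 0.62) and the calcium pump ATP2A2 (0.94 and 0.55). The glutamine carrier SLC38A1 rose by 0.65 and 0.49 and the caspase inhibitor XIAP by 0.53 and 0.64. PGM3, UGGT1, TMED5, ATP2A2, SLC38A1 and XIAP are named here after their values were seen. ENTPD7 (1.31), LRATD2 (1.27) and N4BP2 (1.10) completed the largest increases in parental cells, and TLCD2 rose by 1.21 in tagged cells. In all, 23 members rose in both lines, which is 41.1% of the parental and 88.5% of the tagged list.

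**Figure D3:**
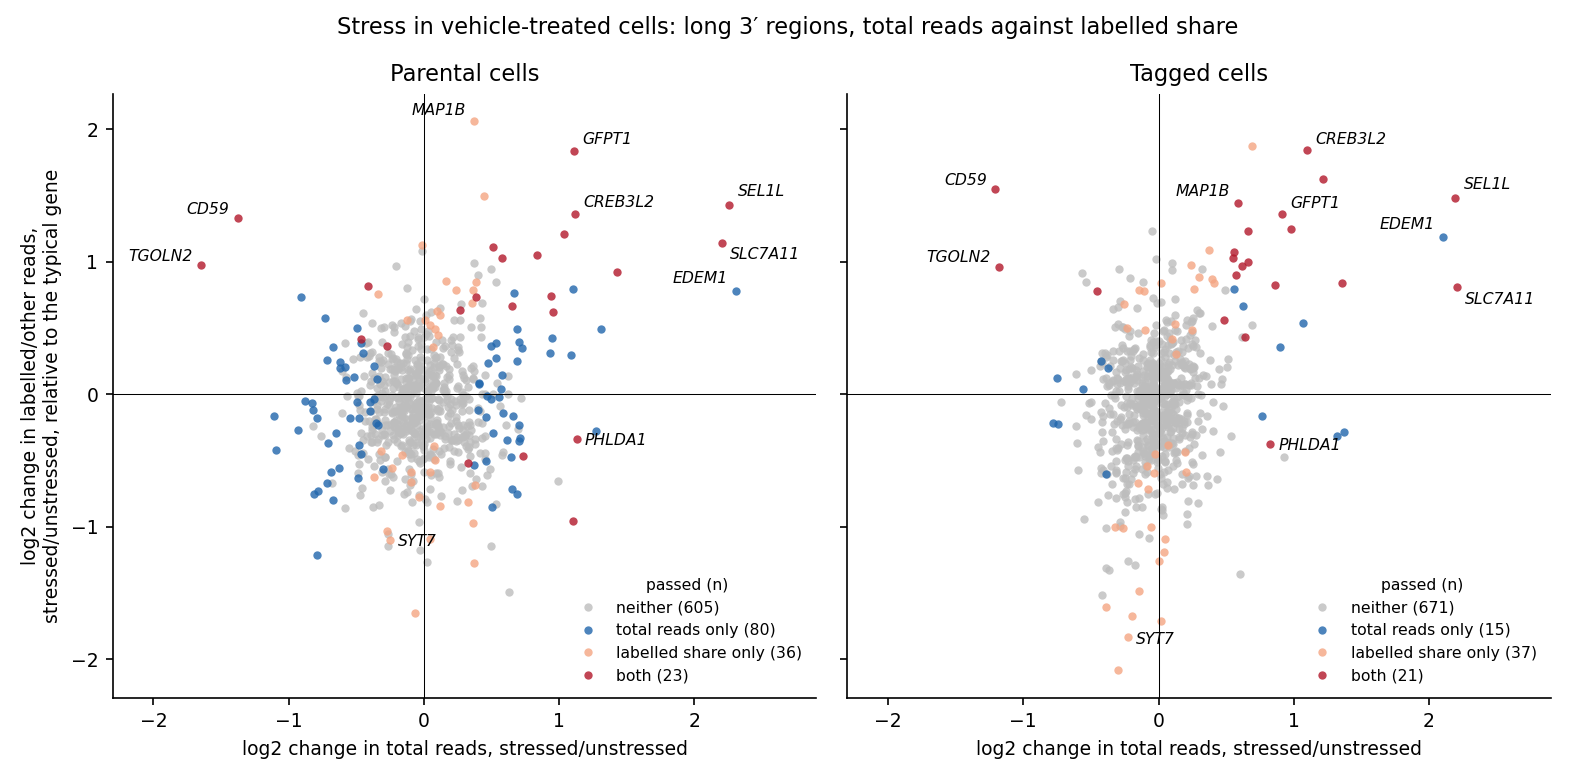
Log2 change with stress in total reads (x axis) and in the ratio of labelled to other reads relative to the typical gene (y axis) for long regions tested in both, in parental (left) and tagged (right) vehicle-treated cells. Colours mark which test each gene passed; SEL1L, SLC7A11 and GFPT1 lie at the upper right, CD59 and TGOLN2 at the upper left, and PHLDA1 at the lower right.

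The promoters of members were searched for stress-response motifs in the 250 bases before to 50 bases after each gene's start (RefSeq, GRCh38.p14), on both strands. The full ER stress element was found in 0 of 640 long-region promoters and in 0.0806% of all 27305. TGATGNAA, the form of the C/EBP-ATF site that ATF4 binds, was found in 1.09% of long-region promoters, 3.67% of all and 2 of the 48 whose genes rose in parental cells. Those were SLC7A1 (chr13:29595663-29595692, minus strand) and SLC38A1 (chr12:46266502-46266531, minus strand), shown here with the match in capitals because both genes carry amino acids into the cell and rose in both lines.
SLC7A1: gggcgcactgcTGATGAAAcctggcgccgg
SLC38A1: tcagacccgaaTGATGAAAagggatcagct
The match starts 7 bases after the annotated start in SLC7A1 and 4 bases before it in SLC38A1. TGACGTGG was found in 1.88% of long-region promoters, 0.795% of all and none of the 48. CCAAT and CCACG, the 2 ends of the ER stress element, were found in 43.8% and 58.3% of the 48, 31.7% and 51.3% of the 640, 38.3% and 51.5% of the shorter-region promoters and 35.7% and 37.9% of all.

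The largest decreases were those of TGOLN2, a resident of the trans-Golgi network, and CD59, a membrane-anchored inhibitor of complement. TGOLN2 (chr2:85318027-85327989, region of 4718 bases) was at 360, 348, 263 and 317 CPM in unstressed and 115, 93.2, 106 and 97.0 CPM in stressed parental, vehicle-treated cells. The groups did not overlap, and the log2 change was -1.65 (SE 0.171, edgeR adjusted p = 2.44e-08), with -1.18 in tagged cells (SE 0.17, edgeR adjusted p = 1.16e-05). CD59 (chr11:33703010-33736479, region of 7116 bases) went from 221, 205, 219 and 237 CPM to 89.4, 84.1, 93.1 and 73.4 CPM, a log2 change of -1.38 (SE 0.0931, edgeR adjusted p = 1.81e-12). Its tagged libraries were at 218, 224, 216 and 226 CPM without and 84.9, 97.5, 103 and 97.8 CPM with stress. HIC2 fell from a mean of 114 to 59.8 CPM (-0.93), and NACC2, a repressor of transcription, from 108 to 61.3 CPM (-0.82). POLH (-1.11), IFFO2 (-1.10), FBXL18 (-0.91), LUZP1 (-0.88), VASH1 (-0.83) and PGM2L1 (-0.81) made up the rest of the 10 largest decreases without overlap in parental cells. Those in tagged cells included CHML (-0.78), KLF13 (-0.75), PDP2 (-0.56), EIF4EBP2 (-0.46) and CUX1 (-0.42). CD59, HIC2, NACC2, PDP2 and TGOLN2 fell in both lines, which is 10.6% of the parental and 50.0% of the tagged list.

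The other lists are read against the 7.65% of all genes that rose and the 5.27% that fell in parental, vehicle-treated cells. Of the 11 members for small-RNA silencing and mRNA decay, 4 fell there and 1 rose, with a median log2 change of -0.29: the decapping activator DDX6 (-0.41), the microRNA-processing enzyme DICER1 (-0.47), the silencing scaffold TNRC6B (-0.58) and the decapping enzyme DCP2 (-0.50) fell, and LARP4B rose by 0.59. The same count was found with 31 libraries, where 14% of all genes fell. In auxin-treated parental cells none of the 11 was called and the median was 0.12; without the smallest library DDX6 fell and the median was -0.10. None of the 11 was called in tagged cells by edgeR's quasi-likelihood test, where DDX6 stood at -0.15 (edgeR adjusted p = 0.556) and TNRC6B at -0.25 (edgeR adjusted p = 0.688); the difference between lines was not called for any of them. Of the 16 RNA-binding regulators, HNRNPA3 (0.47) and SRSF1 (0.73) rose in parental cells. Of the 39 genes listed as solute carriers and ion channels 6 rose and 1 fell. Of the 40 ubiquitin ligases and deubiquitinases 2 rose (SOCS7, XIAP) and 5 fell (BTRC, FBXL18, FBXO45, KLHL42, USP31). Of the 35 zinc fingers 3 fell (ZFHX3, ZNF148, ZNF618), of the 28 other transcription factors RUNX1 rose, of the 10 chromatin regulators SETD7 rose, of the 37 kinases and phosphatases 2 rose and 1 fell, of the 18 adhesion genes 2 fell, and of the 6 let-7 and IGF2BP3 targets DICER1 fell. None of the 27 small GTPases and none of the 6 genes listed under cyclins, p53 and the cell cycle was called in parental cells. Those 6 are CCNT1, CCNT2, CDK19, CDK6, MDM2 and MDM4. The 6 that rose on the list of solute carriers and ion channels include SLC7A1 and SLC7A11 of the ATF4 list. No difference of these counts from the shares over all genes was tested.

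The T content and pentamer density of the called members are given as a description. The 56 that rose in parental, vehicle-treated cells had a median T content of 32.4% and 2.68 pentamers per kilobase (37 with a matched 3′UTR), and the 47 that fell had 30.1% and 1.42 (34). With 31 libraries these were 32.5% and 2.72 for the 116 that rose and 29.6% and 1.47 for the 116 that fell. In tagged, vehicle-treated cells the values were 31.5% and 2.72 for the 26 that rose and 29.2% and 1.41 for the 10 that fell, but with 31 libraries 31.5% and 2.49 for the 43 that rose and 31.2% and 2.01 for the 27 that fell. In auxin-treated parental cells T content was 31.4% in risen and 31.2% in fallen members, and 32% and 30.5% without the smallest library. Over all 754 the medians were 31.7% and 2.19. The gap in T content was thus similar in both fits for parental, vehicle-treated cells, whereas in the other comparisons given here its size changed with the smallest library. With each library corrected for T content the calls in parental, vehicle-treated cells split into 45 and 61, as given above, and those in tagged cells into 26 and 11.

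The labelled share of the typical gene fell under stress, so shifts of the share are given relative to it. Without that centring, the median log2 ratio of labelled to other reads changed by -0.40 over all genes and by -0.41 over long regions in parental, vehicle-treated cells, and by -0.28 and -0.29 in tagged cells. Relative to the typical gene, the share of 36 members rose and that of 23 fell in parental cells (744 tested; 8.21% of all genes called, 4.84% higher and 3.37% lower). In tagged cells 37 rose and 21 fell (7.03% of all genes, 5.08% higher and 1.94% lower). With 31 libraries these were 40 and 25 (8.53% of all genes called), and 38 and 22 (7.17%). Of the risers 25 were shared by the lines, which is 69.4% of the parental and 67.6% of the tagged list, and of the fallers 6 (26.1% and 28.6%). Without the centring the split turns: 17 rose and 156 fell in parental cells (2.35% of all genes higher and 19.8% lower) and 16 rose and 72 fell in tagged cells (2.76% and 8.27%).

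GFPT1, the rate-limiting enzyme of hexosamine synthesis, had a labelled share of 14.3%, 15.5%, 12% and 13.8% in unstressed and 31.2%, 31.4%, 28.5% and 34.3% in stressed parental, vehicle-treated cells. No library overlapped, and its ratio of labelled to other reads rose by 1.84 on the log2 scale relative to the typical gene (SE 0.187, edgeR adjusted p = 3.4e-14), while its reads went from 67.9 ± 2.62 to 147 ± 16.6 CPM (SD, n = 4). SEL1L (13.6% ± 3.83 to 24.8% ± 1.22), SLC7A11 (13.9% to 22.1%), CREB3L2 (18.3% to 31.5%), SSR1 (23.0% to 33.9%) and PGM3 (24.2% to 36.9%) rose likewise, by 1.43, 1.14, 1.36, 1.11 and 1.21. EDEM1, with few reads, had 61.3% and 66.9% and was not called (0.78, edgeR adjusted p = 0.381). Of the unfolded protein and ATF4 list, 7 rose in share in each line and none fell, and the list's median share went from 18.3% to 31.4% in parental cells. The ER lectin MLEC had a called rise in share (0.78) at a total change of 0.24 (edgeR adjusted p = 0.158), and so did the calcium-binding CALU (0.63 at a total change of 0.10, edgeR adjusted p = 0.807). In MAP1B, a microtubule-associated protein, the share went from 7.02% ± 5.33 to 19.6% ± 2.46, the largest rise among members (2.06, SE 0.403, edgeR adjusted p = 6.96e-05).

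The labelled share and the total reads did not always move the same way. Of the 56 members whose reads rose in parental cells, 14 also rose in share and 4 fell in share, and of the 47 whose reads fell, 5 rose in share and none fell. CD59 had shares of 8.5%, 11.4%, 10.3% and 9.87% in unstressed and 17.0%, 20.2%, 17.2% and 18.4% in stressed cells, so that its stressed libraries held fewer reads and a larger labelled part of them, with no overlap in either (share change 1.33, SE 0.179, edgeR adjusted p = 3.7e-09). TGOLN2 (15.3% to 21.9%), DDX6 (18.9% to 24.5%), DICER1 and CACUL1 were the other 4. In tagged cells CD59, TGOLN2 and EIF4EBP2 showed both changes.

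PHLDA1 was the reverse. Its reads were 220, 201, 253 and 213 CPM in unstressed and 457, 569, 412 and 501 CPM in stressed parental, vehicle-treated cells (log2 change 1.13, SE 0.144, edgeR adjusted p = 1.15e-06). Its labelled share was 54.0%, 55.0%, 57.2% and 54.8% without and 42.3%, 45.6%, 40.4% and 46.4% with stress, a change of -0.34 relative to the typical gene (SE 0.109, edgeR adjusted p = 0.0354). The groups overlapped in neither measure. In tagged cells the changes were 0.83 and -0.38, and the shares 57.7%, 48.2%, 50.8% and 45.8% without and 36.8%, 45.6%, 34.0% and 42.1% with stress, which do not overlap either. SRSF1, a splicing factor, C5orf24 and SPATS2L had the same pair of calls in parental cells. In tagged cells SRSF1 stood at 0.08 in total reads (edgeR adjusted p = 0.982) and 0.01 in share (edgeR adjusted p = 0.982).

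**Figure D4:**
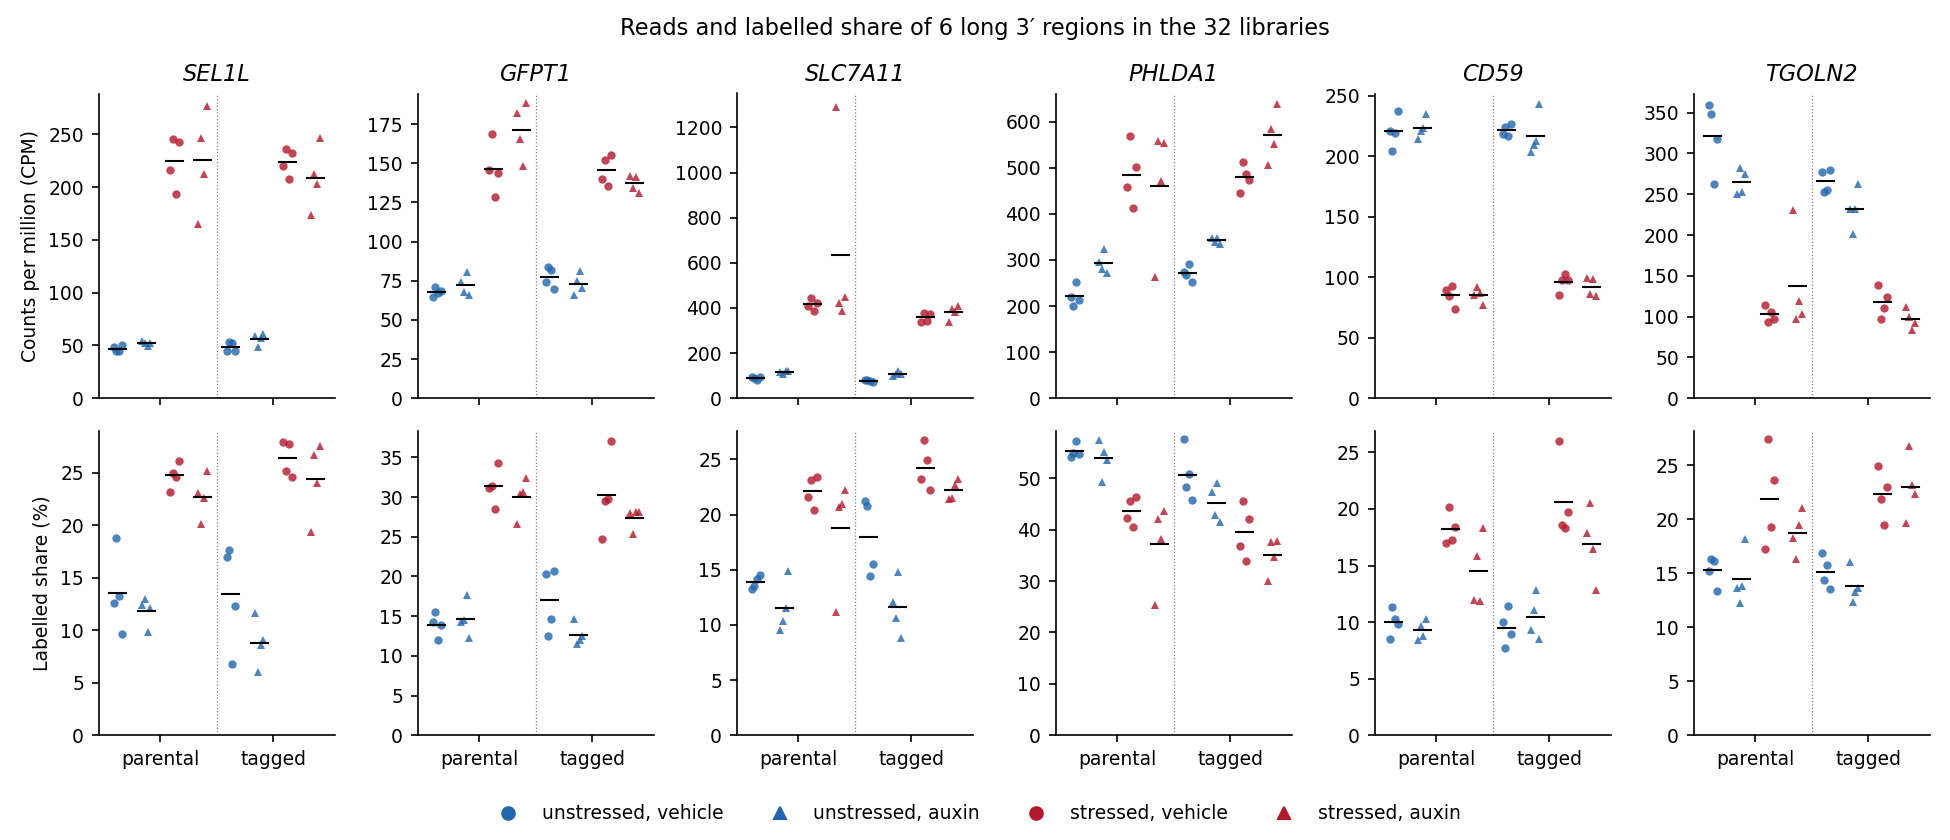
Reads (upper row, CPM) and labelled share (lower row, percent of reads) of 6 long-region genes in all 32 libraries; points are libraries, circles vehicle and triangles auxin, blue unstressed and red stressed, and lines are group means. SEL1L, GFPT1 and SLC7A11 are higher with stress in both rows, PHLDA1 is higher above and lower below, and CD59 and TGOLN2 are lower above and higher below.

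A fall in share at unchanged reads was seen in ZBTB40, a zinc-finger gene. Its share was 34.9%, 33.7%, 34.8% and 28% without and 16.8%, 11.7%, 17.0% and 16.7% with stress in parental, vehicle-treated cells (change -1.09, SE 0.299, edgeR adjusted p = 0.00867), at means of 32.7 and 33.8 CPM. In tagged cells the change was -1.19 (SE 0.31, edgeR adjusted p = 0.00562). With auxin it was -0.66 (edgeR adjusted p = 0.25) in parental and -0.63 (edgeR adjusted p = 0.23) in tagged cells. SYT7, a synaptotagmin of lysosome exocytosis, had shares of 13.4%, 8.47%, 9.95% and 6.51% without and 2.69%, 4.80%, 5.64% and 2.50% with stress (-1.10, SE 0.367, edgeR adjusted p = 0.0434), a call lost in 10 of 41 alternative settings. KITLG, the ligand of the receptor KIT, went from 25.4% to 14.3%, the kinesin KIF1C from 7.72% to 4.12% and ZFAND5 from 45.4% to 31.7%, and all 3 were called in both lines. Among the largest falls in parental cells were also IQCE (-1.65), CRTAP (-1.28), GNAQ (-1.03), SORL1 (-0.98), SPATS2L (-0.96) and COX19 (-0.84), and in tagged cells SESTD1 (-2.08), ETV6 (-1.71), LMX1B (-1.68), MAPT (-1.48) and HYCC1 (-1.26). The members whose share rose in parental cells had a median of 581 reads and a share of 14.8% before stress, against 187 reads and 22.0% over all members, and those whose share fell had a median share of 23.3%.

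Stress was also compared within auxin-treated cells, which uses other libraries than the vehicle comparison. In parental cells 81 members rose and 31 fell in total reads (10.4% of all genes called, 7.19% higher and 3.19% lower), or 52 and 44 without the smallest library (9.27% of all genes), and 66 of the 112 were called in both. In tagged cells 24 rose and 12 fell (4.13%, with 3.01% higher and 1.12% lower), or 37 and 33 with 31 libraries (8.11%). Leaving out replicate 4 of the parental, stressed, auxin-treated cells raised the members called in parental cells from 14.9% to 22.5%, and a fit on the 8 compared libraries alone called 1.19%. SEL1L changed by 2.24 in parental cells with 31 libraries and by 1.89 in tagged cells, CD59 by -1.38 and -1.23 and TGOLN2 by -1.30 and -1.26. Of the unfolded protein and ATF4 list 10 of 11 rose in parental and 7 in tagged cells, and 9 and 8 with 31 libraries. The zinc fingers depended on the smallest library: in auxin-treated parental cells 10 of 35 rose and 1 fell (median 0.18), against 0 and 3 with vehicle, and without that library 5 rose and 3 fell (median 0.03; 5.81% of all genes higher and 3.46% lower). FKBP14 went from 2.07 to 1.42 and UBN2 from 1.75 to 0.65 when the smallest library was left out of the parental comparison. In labelled share 39 members rose and 20 fell in parental (8.03% of all genes, 5.37% higher and 2.66% lower) and 36 and 8 in tagged cells (7.12%, with 5.07% higher and 2.04% lower). Without the smallest library these were 41 and 15 (7.46%), and 42 and 11 (7.64%).

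Auxin changed members in parental as well as in tagged cells. In unstressed parental cells, which have no degron, 28 members rose and 2 fell, which is 3.71% and 0.265% of members. Of all genes 4.81% rose and 2.33% fell (7.14% called), so members were called less often than all genes. With 31 libraries 95 members rose and 55 fell, which is 19.9% of members against 24.9% of all genes. In unstressed tagged cells 1 member rose and 1 fell, which is 0.265% of members against 0.681% of all genes (0.394% higher and 0.287% lower). With 31 libraries 50 rose and 57 fell, which is 14.2% of members against 15.9% of all genes. The parental count rests on single libraries: it was 0.398% of members without replicate 1 or 2 of the vehicle-treated or replicate 3 of the auxin-treated cells, 0.531% without replicate 1 of the latter and 1.46% without replicate 4 of the former, and 9.28% without replicate 3 of the vehicle-treated and 6.63% without replicate 4 of the auxin-treated cells, against 3.98% with all. The tagged share lay between 0.0% and 14.2% over the omissions of single libraries. These comparisons share no library with each other, but each shares its vehicle libraries with the stress comparison of its line. The largest parental rise was that of SPATS2L, at 35.4, 28.6, 76.3 and 44.8 CPM with vehicle and 110, 97.5, 125 and 77.1 CPM with auxin (log2 change 1.13, SE 0.292, edgeR adjusted p = 0.0213). Its change in tagged cells was 0.85 (edgeR adjusted p = 0.11). GTF2H5, a subunit of the repair factor TFIIH, was at 55.1, 36.6, 85.5 and 60.4 CPM with vehicle and 124, 127, 158 and 99.3 CPM with auxin (1.09, SE 0.21, edgeR adjusted p = 0.00678), and changed by 0.52 in tagged cells (edgeR adjusted p = 0.166). For both genes all auxin libraries lay above all vehicle libraries of the parental line. RAB8B (1.09), PODXL (1.04), IPMK (1.01) and TRPM7 (1.01) followed, and PRP4K and PDPK1 fell, each by 0.49 on the log2 scale.

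Of the 28 members that rose with auxin in parental cells, 26 had a positive estimate in tagged cells, with a median of 0.45 there. Over all 754 members the estimate in tagged cells was positive in 339 (45.0%), with a median of -0.03. With 31 libraries, 32 members rose in both lines (33.7% of the parental and 64.0% of the tagged list) and 19 fell in both (34.5% and 33.3%); SLC7A11, PHLDA1, SRSF1, LARP4B and SEC62 were among the former and SSR1, SEPTIN11 and SF3B3 among the latter. How far the calls of the lines overlap over all genes is not given here, so these shared calls are not a result about long regions. The 2 members called in tagged cells with 32 libraries were CRIPT and STEAP2. CRIPT was at 26.7, 27.2, 31.1 and 32.9 CPM with vehicle and 47.8, 46.9, 46.0 and 41.9 CPM with auxin (0.63, SE 0.119, edgeR adjusted p = 0.0187). STEAP2, a metalloreductase, was at 29.8, 33.1, 26.3 and 20.3 CPM with vehicle and 18.6, 18.2, 13 and 15.7 CPM with auxin (-0.73, SE 0.176, edgeR adjusted p = 0.0444). Neither gene's groups overlapped, and STEAP2 lost its call in 19 of 40 alternative settings and CRIPT in 6.

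The effect of auxin differed between tagged and parental cells for 1 member, FOXK1, a forkhead transcription factor (0.0179% of all genes tested). With auxin, its reads rose in parental cells from 39.8, 47.1, 51.9 and 53.8 CPM to 86.1, 70.7, 88.2 and 69.3 CPM (0.71, SE 0.12, edgeR adjusted p = 0.00368). In tagged cells they were at 67.4, 69.4, 69.4 and 61.8 CPM with vehicle and 53.7, 52.1, 61.2 and 54.8 CPM with auxin (-0.27, edgeR adjusted p = 0.204). The difference was -0.98 (edgeR adjusted p = 0.0149), and with 31 libraries -0.97 (edgeR adjusted p = 0.00175). It lost its call in 8 of 40 alternative settings, namely the fit with a replicate block and T-content correction and the omission of replicate 1 of the vehicle-treated or 1 or 3 of the auxin-treated parental cells, or of 2 or 3 of the vehicle-treated or 1 or 2 of the auxin-treated tagged cells. The vehicle libraries of the 2 lines did not overlap, parental cells being lower, while the auxin libraries of parental cells lay above those of tagged cells. With 31 libraries TRPM7 and PURA were called too (0.525% of all genes). TRPM7 changed by 1.01 in parental and by 0.13 in tagged cells.

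In stressed cells no member's total reads were called as changed by auxin in either line with 32 libraries. Of all genes 0.0179% were called in each line by edgeR's quasi-likelihood test. An unadjusted p under 0.05 by that test was reached by 185 parental and 98 tagged members of 754, against 1770 and 1528 of all 11167 genes. With 31 libraries 4 rose and 19 fell in tagged cells (3.05% of members, 2.20% of all genes) and none was called in parental cells (0.0267%). DESeq2 called 32 members in parental and none in tagged cells, with 195 and 110 at an unadjusted p under 0.05. Without replicate 2, 3 or 4 of the parental, stressed, auxin-treated cells, 2.52%, 3.18% and 11.3% of members were called in parental cells. The difference between lines in stressed cells was called for 0 members (0.0% of all genes). At an unadjusted p under 0.05 there were 206 of 754 members and 2430 of all 11167 genes. DESeq2 called this difference for 10 members, and 11.9% of members were called without replicate 4 of the parental, stressed, auxin-treated cells. For DESeq2 and for these omissions of single libraries the share over all genes is not given here. No member's labelled share was called as changed by auxin in unstressed parental cells (0.212% of all genes called; 61 members at an unadjusted p under 0.05), in unstressed tagged cells (0.0% of all genes; 53 members), in stressed parental cells (39) or in stressed tagged cells (52). Without replicate 3 of the unstressed, vehicle-treated parental cells, 0.671% of members were called in the first of these. Over all 8951 genes tested in share, an unadjusted p under 0.05 was reached by 681, 648, 471 and 607, in the same order of comparisons.

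**Figure D5:**
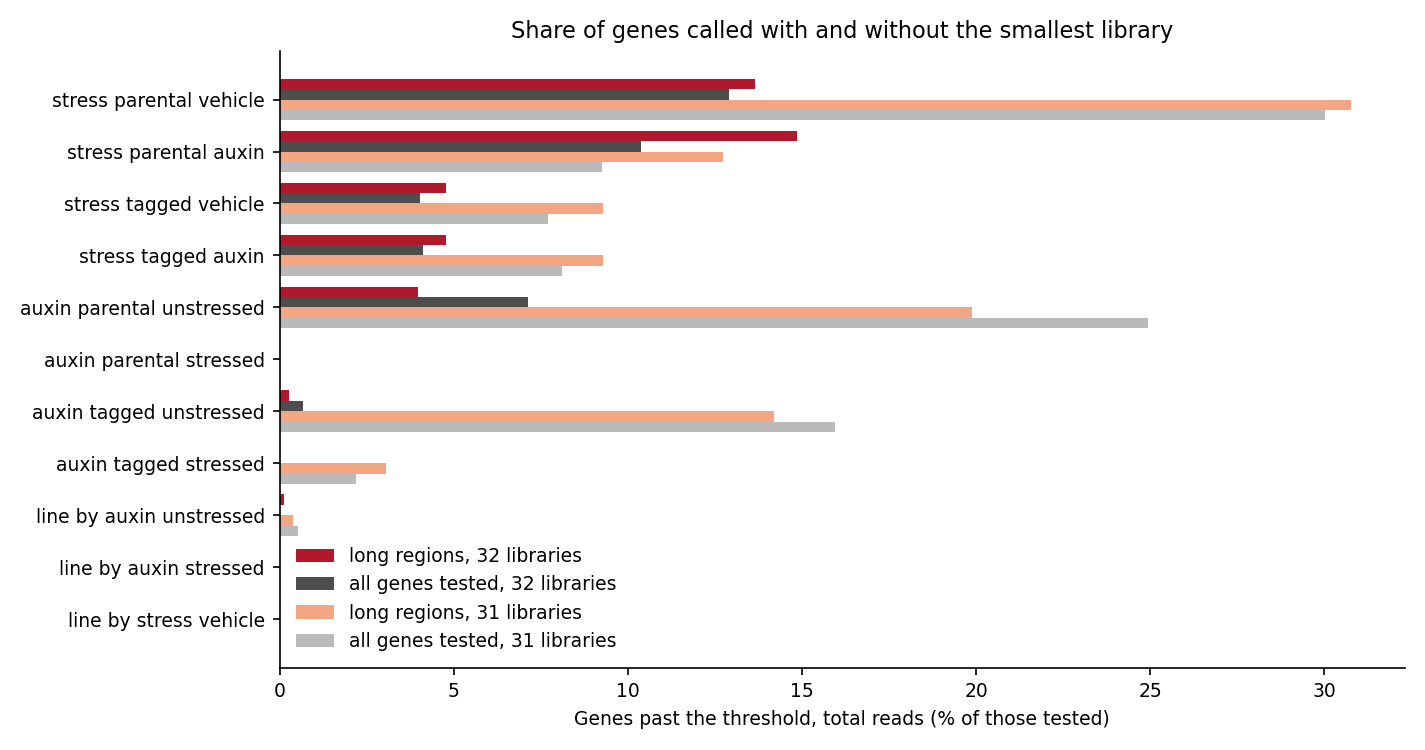
Percent of the long regions (red and pale red) and of all genes tested (dark and pale grey) called in total reads in each of the 11 comparisons, with 32 and with 31 libraries. In parental, vehicle-treated cells 13.7% of long regions and 12.9% of all genes are called under stress, and without the smallest library the bars of 7 comparisons lengthen and that of stress in auxin-treated parental cells shortens.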

How the data were processed

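The deposited files give, for each of 32 libraries, whole-number counts per 3′ region, per the file headers: reads, reads with T-to-C conversions, covered T and converted T. Reads were aligned to hg38, per the submitters' processing notes; mapping settings, the conversion threshold and the source of the regions are not given in the sources used here. The members and gene lists were chosen with earlier results of these data known. Each of 95582 regions per file was tied to its gene by RefSeq identifier, which matched 40002 of 40767 mRNA regions. Genes whose counts were all the same as those of another gene were left out.

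Total reads (11167 genes) and labelled against other reads within a library (8951 genes, each kind scaled on its own) were fitted over all genes and libraries with edgeR 4.0.16 (TMM, filterByExpr, quasi-likelihood; R 4.3.3). P-values were adjusted by Benjamini-Hochberg over all genes with a threshold of 0.05. They measure the spread between wells. Fold changes are log2. DESeq2 1.42.0 and limma 3.58.1 served as alternatives, and the scripts were tested on simulated data. Genes were named by rule: the 5 longest regions, the 5 on either side of 4000 bases, the 8 highest and 8 lowest labelled shares among regions with at least 200 reads, the 10 largest changes in total reads and 8 in share each way whose groups of 4 did not overlap, up to 6 each way in the other comparisons, and up to 4 examples per list. No 2 libraries of a group had counts that agreed within sampling noise. Gene reads ranged from 984226 to 6962984 per library.

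Replicate numbers recur in every group. In total reads, libraries with the same number did not deviate together on average. The labelled percent of a library did follow the number, as set out with the alternatives. Sequences were read from GRCh38 (GENCODE 29 transcripts) and from RefSeq promoters.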

Additional observations from a re-analysis of the deposited data

Results flagged for a closer look

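Among 106 sets of 4 libraries examined, 4 held a value far from the other 3; chance alone gives about 1 in 20. CREB3L2 stood at 46.8 CPM in replicate 1 of parental, unstressed, vehicle-treated cells and at 37.5 to 37.8 CPM in the others. The labelled share of ZBTB40 was 11.7% in replicate 2 of parental, stressed, vehicle-treated cells, against 16.7% to 17.0%, and 28% in replicate 4 of the unstressed ones, against 33.7% to 34.9%. In replicate 1 of parental, stressed, auxin-treated cells, reads in the median long region covered 16.0 T, against 25 to 25.2 in the other 3 libraries. The effect of auxin on FOXK1 in unstressed cells differed between the lines by -0.98 on the log2 scale, tagged minus parental, by a test of the difference itself.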

How the results depend on the processing

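Over all alternatives run for the comparisons, 897 values stayed within the set limits, 118 moved and 0 were marked as reversed. These values are percents called and gaps, so they do not follow the split into members that rose and fell. In parental, vehicle-treated cells under stress that split turned in total reads with T-content correction. Without centring it turned in labelled share, there and in tagged, vehicle-treated cells, as given above. For named genes 5670 values kept their side of the threshold, 240 lost their call and 37 moved, most often in STEAP2 (19 of 40 settings), CUX1 (13), STXBP5 (12) and SAMD5 (12). Counts below are the percent of tested members called, and the cause of each move was not tested unless the setting itself leaves fewer genes or libraries.

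In regions of at least 6000 bases the gap in labelled share was 6.35, 5.24 and 4.57 points in parental cells (unstressed vehicle, unstressed auxin, stressed vehicle) and 5.76, 5.00, 4.63 and 3.89 in the 4 tagged groups. Auxin in unstressed tagged cells then called 0.0% and the line difference 0.446%. With at least 200 reads the gaps were 5.68, 5.25 and 4.50 in the same parental groups and 5.32, 4.99, 4.41 and 4.13 in tagged cells. The shares called under stress were 13.9% and 13.9% in parental (vehicle, auxin) and 12.8% and 10.3% in tagged cells, with 0.0% and 0.279% for auxin in unstressed tagged cells and the line difference. As conversions per covered T the gaps were 0.436, 0.335, 0.249, 0.240, 0.424, 0.308, 0.262 and 0.210 points, and within 5 bands of T content 4.05, 3.83, 2.92, 2.24, 4.03, 3.66, 2.43 and 2.26. Within 5 bands of covered T per read, chosen after seeing the data, and with the longest region per gene, the gap in stressed, vehicle-treated tagged cells was 3.61 and 3.42.

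With only the compared libraries, total reads called 20.7%, 1.19%, 8.09% and 9.42% for stress (parental vehicle, parental auxin, tagged vehicle, tagged auxin), and 9.55%, 14.7% and 10.1% for auxin in unstressed parental, unstressed tagged and stressed tagged cells, with 0.265% for the line difference in unstressed cells. DESeq2 called 8.79%, 4.26% and 3.46% for auxin in unstressed parental, stressed parental and unstressed tagged cells, and 0.40% and 1.33% for the line difference in unstressed and stressed cells. With no filter on low counts 0.133% were called for auxin in unstressed tagged cells, and in labelled share for auxin in unstressed parental cells and for the line difference in stress. T-content correction gave 0.663% for auxin in unstressed tagged cells. Without centring, the labelled share called 23.3%, 20.2%, 11.8% and 12.8% for stress and 0.134% for auxin in stressed tagged cells; limma on log2 ratios called 4.03% for stress in parental, vehicle-treated cells.

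In total reads, libraries with the same replicate number had a mean correlation of 0.029 in their deviations, against -0.01 otherwise. Of the 32 libraries 11 correlated best with their own number, so total reads showed no pairing by number. The labelled percent of gene reads did follow the number. Replicates 1 and 3 lay above 2 and 4 in each unstressed group, and below them in each stressed one. In parental, vehicle-treated cells it was 13.4%, 12.8%, 13.2% and 12.2% without and 11.6%, 12.7%, 10.9% and 12.1% with stress. A block common to all groups cannot take up an order that turns, and its cause was not tested. A replicate block gave 13.8%, 13.7%, 4.51% and 4.64% for stress, 4.77% and 0.265% for auxin in unstressed parental and tagged cells, and 7.93%, 7.80%, 7.80% and 6.05% for stress in labelled share. With the block and T-content correction, auxin in unstressed parental and tagged cells called 6.10% and 1.06% and the line difference 0.0%.

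Leaving out each library in turn, the 4 stress comparisons called 7.16% to 30.8%, 10.1% to 22.5%, 3.58% to 9.28% and 4.11% to 9.28% in total reads and 6.17% to 8.72%, 6.17% to 8.05%, 5.91% to 8.05% and 4.83% to 7.11% in labelled share. Auxin called 0.398% to 19.9% in unstressed and 0.0% to 11.3% in stressed parental cells, and 0.0% to 14.2% and 0.0% to 3.05% in tagged cells. The line difference called 0.0% to 0.398% for auxin in unstressed cells, 0.0% to 11.9% in stressed cells and 0.0% to 0.0% for stress. In labelled share, auxin in unstressed parental cells called 0.0% to 0.671% and the line difference in stress 0.0% to 0.134%. The gaps ranged over 4.77 to 5.07, 4.23 to 4.59, 3.51 to 3.86, 2.86 to 3.36, 4.72 to 4.92, 3.99 to 4.19, 3.48 to 3.54 and 3.03 to 3.34 points.

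Depth limits the labelled share of genes near 50 reads, where few labelled reads set the value.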
